A study of Mus musculus with 14 samples.

Results

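The RNA levels of 10 genes that add, remove or supply acyl groups on histone lysines were followed through the 2-cell stage of the mouse embryo: the acyltransferase genes Ep300, Crebbp, Kat2a, Kat5, Kat7 and Kat8, the class I deacetylase genes Hdac1, Hdac2 and Hdac3, and Acss2. They were chosen by symbol, as enzymes that write or erase histone acetyl and lactyl marks, and each symbol matched 1 of the 56923 genes in the count table. Acyltransferases move an acyl group from coenzyme A to the amino group of a lysine, which neutralizes the positive charge of the histone tail, and acetylated promoters and enhancers are a mark of active transcription. The class I enzymes Hdac1, Hdac2 and Hdac3 take such groups off as the catalytic subunits of corepressor complexes. Lactyl groups on histones derive from lactate, p300 (Ep300) can attach them, and Hdac1, Hdac2 and Hdac3 can remove them. In the mouse, transcripts stored in the oocyte are degraded while the embryonic genome becomes active, with the main burst of transcription in the late 2-cell embryo.

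The data were RNA-seq counts of 14 libraries, 2 in each of 7 conditions and each from 5 embryos of ICR mice. Early 2-cell embryos were taken 30 h and late 2-cell embryos 54 h after hCG. In the G&N condition the culture medium mKSOM held 10 mM lactate and, from 24 h after hCG, 5 μM Gne140 and 50 μM NMN. Gne140 is an inhibitor of the lactate dehydrogenases LDHA and LDHB, and NMN is a precursor of NAD. The G&N-L condition differed only in having no lactate from 24 h. Both conditions were sampled at both stages. The other conditions were late 2-cell only. In the Lac-CoA condition, zygotes were injected with 1 mM lactyl-CoA and cultured as G&N-L. In the H3K18R condition, zygotes received mRNAs of histones H3.1, H3.2 and H3.3 with lysine 18 changed to arginine, and in the WT condition, as the study describes it, the wild-type mRNAs, neither with Gne140 or NMN stated. Counts of the H3.1 gene H3c1 were 43643 and 83390 for H3K18R, 4 and 3 for WT and at most 66 in any library outside H3K18R, so the counts show an injected H3 mRNA in the H3K18R libraries and none under this gene in the WT libraries. The deposited treatment labels give Gne140 and NMN for the early libraries titled G&N-L, without naming the lack of lactate. For the early libraries titled G&N they name only Gne140. The titles were followed. For the Lac-CoA libraries the titles add only the letter A and the treatment label names CoA, so lactyl-CoA rests on the study's methods.

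The 250 bases before the start site are shown for 4 of the genes: Ep300, Kat7, Kat8 and Acss2. They are RefSeq sequences of build GRCm38.p6 with coordinates of that build, 5′ to 3′ on the gene's own strand. Of the 10 genes 8 had an entry, and Hdac1 and Hdac3 had none. Kat8 had a second start, not shown. Capitals mark the GC box (GGGCGG), the CCAAT box (CCAAT), the TATA box (TATAAA), the E-box (CACGTG), an ETS core (CCGGAAG), an Otx-type homeobox core (TAATCC) and an NRF1 core (GCGCATGCG), searched on both strands.
Ep300, chr15:81585964-81586213, plus strand: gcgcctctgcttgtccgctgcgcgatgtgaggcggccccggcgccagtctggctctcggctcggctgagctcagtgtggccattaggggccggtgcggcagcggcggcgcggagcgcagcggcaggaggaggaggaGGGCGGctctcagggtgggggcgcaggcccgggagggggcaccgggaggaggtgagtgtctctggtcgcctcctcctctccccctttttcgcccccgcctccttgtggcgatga
Kat7, chr11:95310247-95310496, minus strand: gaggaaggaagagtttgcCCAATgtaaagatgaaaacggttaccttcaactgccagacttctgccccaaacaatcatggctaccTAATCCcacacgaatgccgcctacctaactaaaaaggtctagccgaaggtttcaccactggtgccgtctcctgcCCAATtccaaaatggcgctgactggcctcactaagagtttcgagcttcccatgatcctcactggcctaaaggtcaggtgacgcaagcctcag
Kat8, chr7:127912267-127912516, plus strand: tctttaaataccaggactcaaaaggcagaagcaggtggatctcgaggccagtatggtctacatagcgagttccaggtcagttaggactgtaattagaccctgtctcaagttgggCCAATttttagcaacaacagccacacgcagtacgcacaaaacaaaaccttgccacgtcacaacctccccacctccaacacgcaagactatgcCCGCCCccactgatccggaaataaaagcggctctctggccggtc
Acss2, chr2:155517793-155518042, plus strand: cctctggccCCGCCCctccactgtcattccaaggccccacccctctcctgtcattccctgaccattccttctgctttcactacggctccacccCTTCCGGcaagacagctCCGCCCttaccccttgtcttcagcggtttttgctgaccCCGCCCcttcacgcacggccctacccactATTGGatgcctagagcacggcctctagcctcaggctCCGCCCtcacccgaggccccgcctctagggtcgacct
The Ep300 promoter was 73.2% G and C and held 1 GC box, and the Kat7 promoter was 50.8% G and C and held 2 CCAAT boxes, 1 Otx-type homeobox core and no GC box. The Kat8 promoter held 1 CCAAT box and 1 GC box. The Acss2 promoter held 4 GC boxes, 1 CCAAT box and 1 ETS core, and no match overlapped another. Over 32851 RefSeq promoters of the same length, 32.7% held a GC box, 33.8% a CCAAT box, 12.4% a TATA box, 6.02% an E-box, 6.91% the ETS core, 6.25% the homeobox core and 1.45% the NRF1 core, and the median was 52.4% G and C. These are matches of letters, and binding was not measured here.

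On GRCm39 (GENCODE vM39), Ep300 (ENSMUSG00000055024) lies on the plus strand of chr15:81469540-81537206 and Crebbp (ENSMUSG00000022521) on the minus strand of chr16:3899192-4031861. Kat2a (ENSMUSG00000020918) lies on the minus strand of chr11:100595572-100603310, Kat5 (ENSMUSG00000024926) on the minus strand of chr19:5653038-5660271, Kat7 (ENSMUSG00000038909) on the minus strand of chr11:95165085-95201072 and Kat8 (ENSMUSG00000030801) on the plus strand of chr7:127511661-127525009. Hdac1 (ENSMUSG00000028800) lies on the minus strand of chr4:129409895-129436631, Hdac2 (ENSMUSG00000019777) on the plus strand of chr10:36850435-36877890, Hdac3 (ENSMUSG00000024454) on the minus strand of chr18:38068897-38088077 and Acss2 (ENSMUSG00000027605) on the plus strand of chr2:155355679-155428016. All 10 are protein-coding, and a gene's count sums reads over its exons.

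The libraries held 20350427 to 61275465 counts. Levels are given as CPM (counts per 1000000 on TMM-normalized library sizes), as mean ± SD over n = 2 libraries or for each library in the order of its replicate number. A count of 0 allows up to 3 counts, or 0.0490 to 0.147 per 1000000 counts of the library, for counting error only. The marker sums here are also per 1000000 counts of the library, without TMM. Of 15 genes listed as 2-cell markers, 13 were in the table, with sums of 13.2 to 77.8 in the early and 1079 to 4530 in the late libraries, and 15 oocyte genes summed to 21043 to 25179 early and 3884 to 21200 late. Cumulus and granulosa cell genes summed to 10.1 to 44.1 and sperm and spermatid genes to 2.78 to 19.5 over all libraries. The WT and H3K18R libraries stood apart: mitochondrially encoded genes took 10.6% to 12.2% of their counts, against 5.65% to 6.84% in the other late and 2.17% to 3.85% in the early libraries. Nothing stated that the 2 libraries of a condition came from separate collections of embryos, so p-values measure the spread between these libraries. With 2 libraries on each side, the smallest two-sided p of an exact permutation test is 0.333.

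Some reads could be counted for more than 1 gene. Of the 31-base words in the Hdac1 transcript, 31.7% also occurred in transcripts of other genes, mainly the pseudogene Hdac1-ps with 30.2%, so reads could be split between them. The levels of Hdac1 per kilobase were 1.43 to 2.16 times those of Hdac1-ps in the late libraries and 0.905 to 4.62 times in the early ones, where early G&N-L replicate 2 had 41 counts of Hdac1 and 32 of Hdac1-ps. The Kat5 transcript shared 26.5% of its exon bases with Rnaseh2c on the opposite strand, and Kat2a 8.09%, Kat8 7.72%, Acss2 6.55% and Kat7 5.96% with antisense neighbours. The strand setting of the counting was not stated, so reads of such neighbours cannot be told apart. Hdac2 and Hdac3 shared no such word with another gene.

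**Figure D1:**
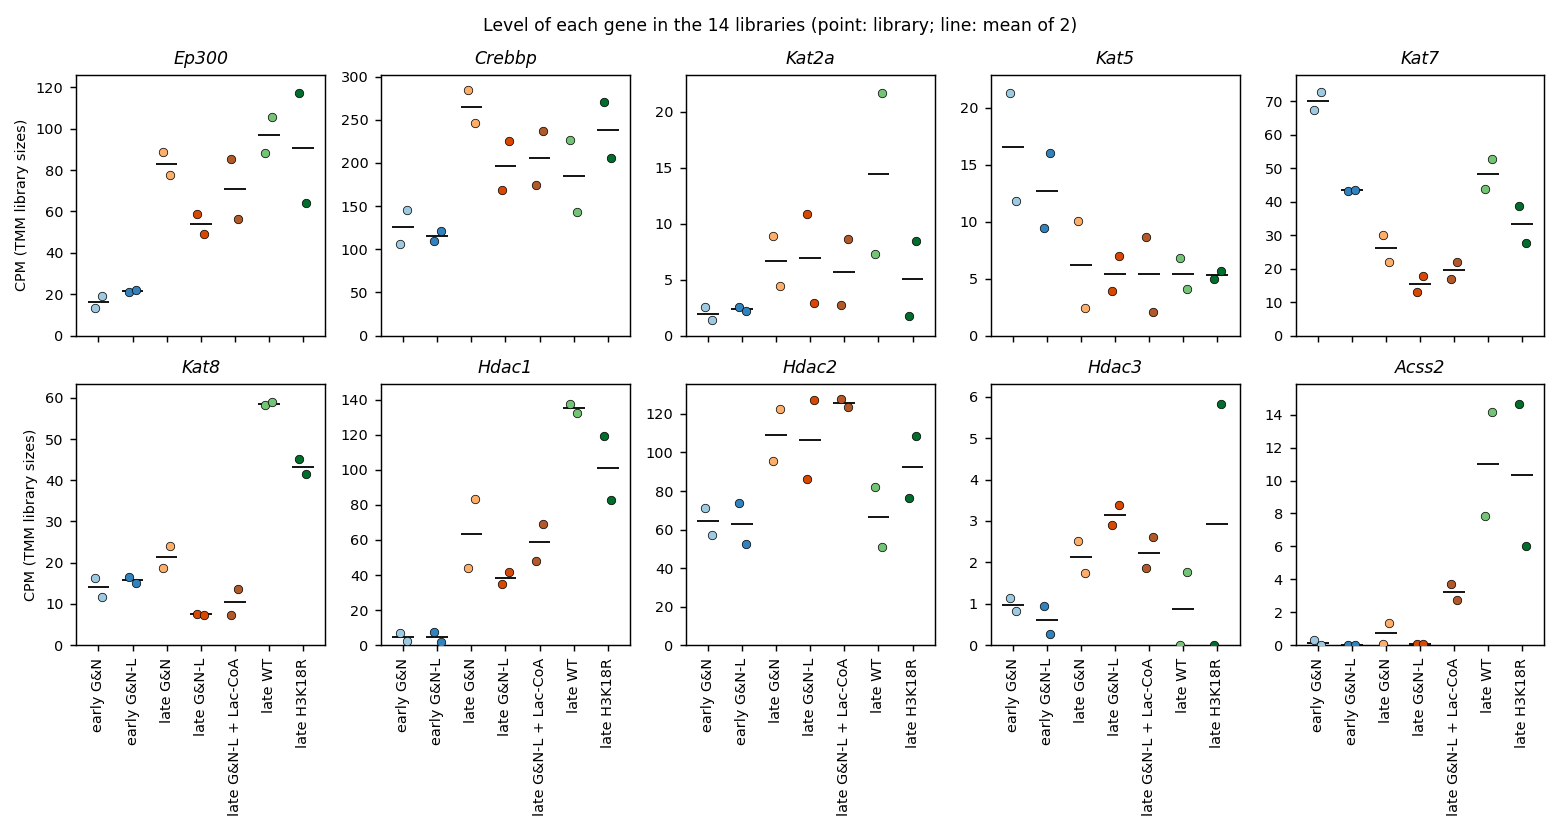
Level of each of the 10 genes in CPM on TMM library sizes (vertical axis, from 0, own scale per gene) in the 7 conditions (horizontal axis). Each point is 1 library and each line the mean of 2 libraries. Ep300 and Hdac1 were higher in all 10 late than in all 4 early libraries, and Kat7 was highest in the early G&N libraries, at 67.4 and 72.7 CPM.

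The genes of the set differed widely in level in the early 2-cell embryo. Scaled per kilobase of the canonical transcript, Hdac2 led every early library, at 24.7 to 34.8 CPM per kb, with Kat7, Crebbp and Kat8 next by their condition means. Hdac3 and Acss2 were the lowest genes of the early embryo, at most 0.404 CPM per kb in any early library. Hdac2 lay at 24 to 60.4 CPM per kb over the late libraries, and by condition means Hdac1 stood above it in WT and H3K18R and Kat8 in WT.

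Ep300 codes for p300, the acetyltransferase of enhancers. It had 13.3 and 19.2 CPM in early G&N, 21.2 and 22.2 in early G&N-L, 88.6 and 77.7 in late G&N, 58.9 and 48.9 in late G&N-L, 85.1 and 56.4 with Lac-CoA, 117 and 63.9 in H3K18R and 88.0 and 105 in WT. Each late library was above each early one. Crebbp codes for CBP, the close relative of p300, and was the more abundant of the pair in every library. Its levels per condition ran from 115 ± 7.58 CPM in early G&N-L to 265 ± 27.5 CPM in late G&N, and conditions next to each other in the order of their means overlapped.

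Kat7 (HBO1) acetylates histone H3 and is linked to the licensing of replication origins. It had 67.4 and 72.7 CPM in early G&N, 43.1 and 43.6 in early G&N-L, 30.2 and 22.04 in late G&N, 13.0 and 17.7 in late G&N-L, 16.9 and 22.1 with Lac-CoA, 38.9 and 27.7 in H3K18R and 43.9 and 52.9 in WT. The early G&N libraries lay above all others and the late libraries without lactate below all others except 1 Lac-CoA library. Kat8 (MOF), the acetyltransferase of histone H4 in the MSL and NSL complexes, had 16.3 and 11.7 CPM in early G&N, 16.5 and 15.1 in early G&N-L, 18.8 and 23.97 in late G&N, 7.67 and 7.31 in late G&N-L, 7.41 and 13.5 with Lac-CoA, 45.1 and 41.5 in H3K18R and 58.3 and 58.9 in WT. The WT and H3K18R libraries lay above the other 10, and the order WT, H3K18R, late G&N held without overlap.

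Kat2a (GCN5), an acetyltransferase of the SAGA and ATAC complexes, was low and uneven, with 1.41 to 2.52 CPM in the early and 1.72 to 21.6 CPM in the late libraries. Its replicates lay far apart in several late conditions, as with 1.72 and 8.42 CPM in H3K18R. Kat5 (Tip60), the acetyltransferase of the NuA4 complex, ran the other way, from 9.42 to 21.3 CPM early to 2.05 to 10.04 CPM late, and 1 late G&N library overlapped the early range.

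Hdac1 had 6.65 and 2.62 CPM in early G&N, 7.58 and 1.86 in early G&N-L, 44.0 and 83.1 in late G&N, 35.2 and 41.5 in late G&N-L, 48.1 and 69.1 with Lac-CoA, 119 and 82.7 in H3K18R and 138 and 133 in WT. The condition means spanned 29.2 times, the widest range of the 9 genes that were above 0 in every condition. Hdac2, its partner in the same corepressor complexes, had the narrowest range, with condition means within 2.00 times, from 62.9 ± 15.1 CPM in early G&N-L to 126 ± 2.93 CPM with Lac-CoA. Hdac3, the deacetylase of the NCoR and SMRT corepressors, stayed between 0 and 5.83 CPM. It had 0 counts in H3K18R replicate 1 and in WT replicate 1 but 133 and 57 counts in their second replicates, so its level in these conditions was not settled.

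Acss2 makes acetyl-CoA from acetate in the nucleus and cytosol. It had 15 and 0 counts in early G&N, 0 and 0 in early G&N-L, 3 and 59 in late G&N, 2 and 2 in late G&N-L, 162 and 120 with Lac-CoA, 306 and 137 in H3K18R and 181 and 459 in WT. In CPM these were 0.294 and 0, 0 and 0, 0.0821 and 1.35, 0.0520 and 0.0522, 3.73 and 2.77, 14.7 and 6.005, and 7.87 and 14.2. The Lac-CoA libraries lay above all 8 libraries of the G&N and G&N-L conditions and below the 4 WT and H3K18R libraries.

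The change from the early to the late 2-cell stage followed these genes through the activation of the genome. Gne140 and NMN were present from 24 h after hCG in both stages, sampled at 30 h and 54 h. Stage and length of treatment therefore cannot be told apart, and in G&N-L the time without lactate differed likewise. With lactate (G&N), Hdac1 and Ep300 rose and Kat7 fell. Hdac1 went from 4.63 ± 2.85 to 63.6 ± 27.6 CPM, a log2 fold change of 3.74 (SE 0.59), with an adjusted p of 0.0202 (edgeR's quasi-likelihood test, Benjamini-Hochberg over 19443 genes). Ep300 went from 16.3 ± 4.17 to 83.1 ± 7.65 CPM, a log2 fold change of 2.26 (SE 0.39, adjusted p = 0.0238 by the same edgeR test). Kat7 went from 70.1 ± 3.76 to 26.1 ± 5.76 CPM, a log2 fold change of -1.504 (SE 0.34, adjusted p = 0.0458 by the same edgeR test). In each of these 3 genes the early and late G&N libraries did not overlap, and without overlap 7 of the 10 genes were higher and 2 lower, as were 35.7% and 28.9% of all genes. Each library was made from 5 embryos at the 2-cell stage. CPM gives a share of the counts, not an amount of RNA per embryo.

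Of the 10 genes tested, 2 were called higher, where 8.18% of all genes were, and 1 lower, where 5.47% were. The median log2 fold change was 1.02 over the 10 genes and 0.08 over all genes. The other 7 did not pass: Crebbp had a log2 fold change of 0.98 (edgeR adjusted p = 0.0879), Hdac2 of 0.69 (0.142), Kat2a of 1.72 (0.206), Kat5 of -1.45 (0.272), Kat8 of 0.55 (0.424), Hdac3 of 1.06 (0.557) and Acss2 of 2.28 (0.561). Crebbp passed under 5 alternatives, with an adjusted p of 0.0109 by DESeq2 and of 0.0373 with library totals, 0.0376 with no filter, 0.0229 with at least 10 counts in every library and 0.0343 with all 14 libraries in one edgeR fit. Scaling by library totals in place of TMM moved the median of all genes by 0.38 and the share of higher genes among those called from 59.9% to 76.4%, and Kat7 then had a log2 fold change of -1.10 and an edgeR adjusted p of 0.0939 (0.00145 to 0.175 over its alternatives). With the size factors of DESeq2 its adjusted p in edgeR was 0.0554. Neither call of Hdac1 and Ep300 held without late G&N replicate 1 (edgeR adjusted p = 0.0596 and 0.109) or replicate 2 (0.0883 and 0.0888), and Kat7 lost its call without any 1 of the 4 libraries (0.0857 to 0.175). The log2 fold change of Hdac1 was 4.53 without early G&N replicate 1 and 3.21 without late G&N replicate 2.

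Without lactate (G&N-L), Ep300 rose and Kat7 fell over the same interval. Ep300 went from 21.7 ± 0.737 to 53.9 ± 7.03 CPM, a log2 fold change of 1.25 (SE 0.26, adjusted p = 0.0417 by edgeR's quasi-likelihood test over 18604 genes). Kat7 went from 43.4 ± 0.378 to 15.3 ± 3.30 CPM, a log2 fold change of -1.56 (SE 0.29, edgeR adjusted p = 0.0326). Of all genes, 5.97% were called higher and 5.87% lower, against 1 and 1 of the 9 genes of the set tested. Hdac1 went from 4.72 ± 4.05 to 38.3 ± 4.46 CPM, a log2 fold change of 2.97 (SE 0.69), and missed the threshold with an edgeR adjusted p of 0.055 (4.23e-05 to 0.163 over its alternatives). Its late libraries were above its early ones, and without overlap 6 of the 9 genes were higher and 3 lower, as were 36.4% and 26.1% of all genes.

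Kat8 fell short of the threshold, from 15.8 ± 0.984 to 7.49 ± 0.258 CPM, with a log2 fold change of -1.14 (SE 0.40, edgeR adjusted p = 0.119). Crebbp had a log2 fold change of 0.71 (edgeR adjusted p = 0.0824, 0.00686 to 0.343 over its alternatives), Hdac2 of 0.71 (0.149), Kat5 of -1.30 (0.206), Hdac3 of 2.31 (0.251) and Kat2a of 1.503 (0.325). Acss2 had too few counts to be tested. Library totals in place of TMM moved the median of all genes by 0.37 and the share of higher genes among the calls from 50.4% to 72.6%, and gave Kat7 an edgeR adjusted p of 0.0592 (0.000136 to 0.128 over its alternatives). Without early G&N-L replicate 1 Hdac1 passed, with a log2 fold change of 4.24 (edgeR adjusted p = 0.0178), and without early G&N-L replicate 2 it was 2.31 (0.055). With any 1 of the 4 libraries left out, the adjusted p was 0.096 to 0.161 for Ep300 and 0.0834 to 0.128 for Kat7.

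**Figure D2:**
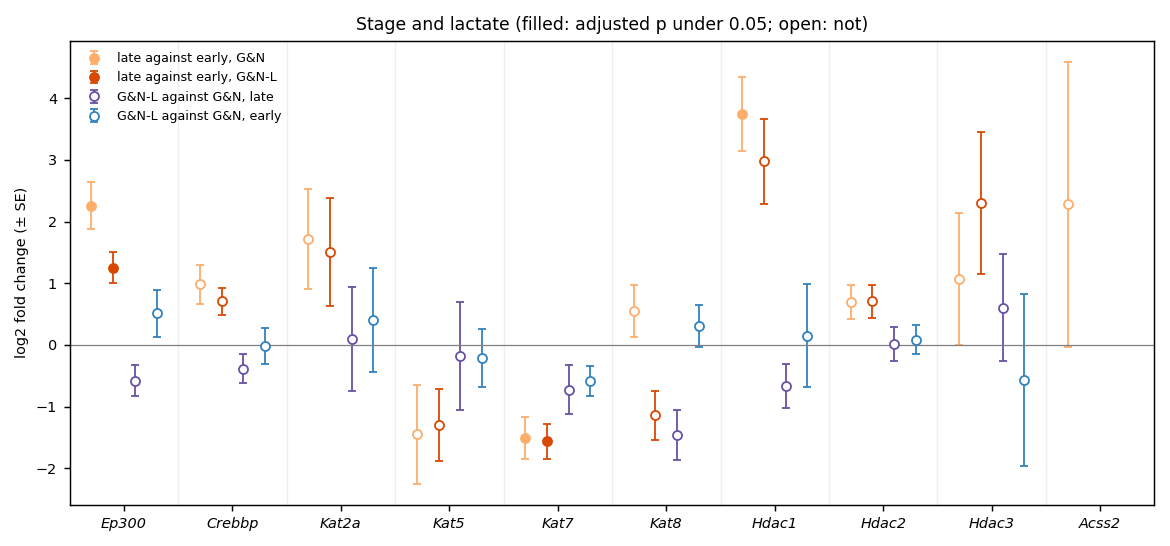
Log2 fold change ± SE (vertical axis) of each of the 10 genes for late against early 2-cell embryos with (G&N) and without lactate (G&N-L), and for G&N-L against G&N at each stage. Filled points have an edgeR adjusted p under 0.05: Hdac1, Ep300 and Kat7 in G&N, and Ep300 and Kat7 in G&N-L. Comparisons whose counts were too low to test have no point.

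Over all conditions, Hdac1 and Ep300 were higher in each of the 10 late than in each of the 4 early libraries, as were 11.8% of all genes, and none of the 10 genes was lower in each late library, as were 8.54% of all. The medians were 4.63 CPM early and 75.9 CPM late for Hdac1, and 20.2 and 81.4 CPM for Ep300. Among the omissions of 1 library, that of WT replicate 2 gave the highest count of genes without overlap. Then 4 of the 10 genes (Ep300, Crebbp, Hdac1 and Hdac2) were higher in each late library, as were 12.1% of all genes. Summed per kilobase, the 6 acyltransferases had 41.6 ± 2.34 CPM per kb in early G&N-L, 50.03 ± 1.39 in early G&N, 37.1 ± 2.96 in late G&N-L, 42.1 ± 5.11 with Lac-CoA, 58.3 ± 6.14 in late G&N, 71.5 ± 9.92 in H3K18R and 84.2 ± 0.145 in WT. The 3 deacetylases summed to 32.3 ± 9.27 and 33.1 ± 6.16 CPM per kb in early G&N-L and G&N, and to 70.3 ± 16.0 to 97.8 ± 11.7 in the 5 late conditions.

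Ratios within a library do not depend on the library's scaling. Each of the 4 pairs given here holds Hdac1 or Ep300, which alone already separated the stages. How often other pairs of genes separate them was not counted. Per kilobase, Hdac1 stood to Hdac2 at 0.0368 to 0.107 in the early libraries and at 0.338 to 2.70 in the late ones. It was above 1 in WT, at 1.74 and 2.70, and in H3K18R replicate 1, at 1.61, and below 1 in the other 11 libraries, with H3K18R replicate 2 at 0.788. Ep300 stood to Crebbp at 0.129 to 0.197 early and 0.223 to 0.756 late. Kat7 stood to Ep300 at 5.83 to 15 early and 0.589 to 1.49 late. Kat8 to Ep300 overlapped, at 4.05 to 8.19 early and 0.581 to 4.43 late. A ratio shows that the genes changed unequally, not which of them changed.

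**Figure D3:**
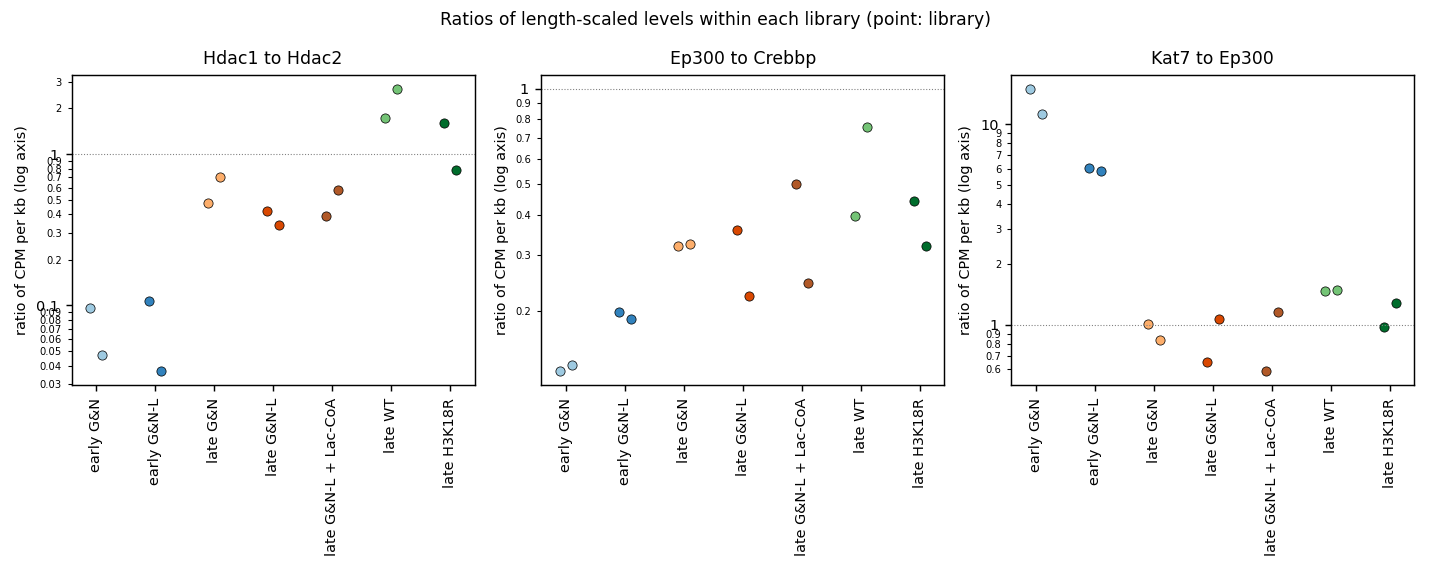
Ratio of CPM per kb within each library (vertical axis, log scale) for Hdac1 to Hdac2, Ep300 to Crebbp and Kat7 to Ep300, in the 7 conditions. Each point is 1 library and the dotted line marks a ratio of 1. The early and late libraries did not overlap in any of these 3 ratios, each of which holds Hdac1 or Ep300.

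The removal of lactate was compared within each stage, with Gne140 and NMN in both arms, to ask whether these enzymes depend on lactate in the medium. At the late stage no gene passed the adjusted threshold of edgeR in 19481 tested (0.0% called), although 2332 genes (12%) had an unadjusted p under 0.05 and DESeq2 called 916. Kat8 was the only gene of the 9 tested with an unadjusted p under 0.05. Its late libraries had 18.8 and 23.97 CPM with lactate and 7.67 and 7.31 CPM without it, a log2 fold change of -1.46 (SE 0.41) with an edgeR adjusted p of 0.332 (0.0844 to 0.691 over the alternatives). It was lower in both lactate-free libraries than in either with lactate. The 15 oocyte genes summed to 18919 and 21200 per 1000000 counts without lactate and 14641 and 15144 with it, and the 13 2-cell genes to 2430 and 2836 and to 2381 and 2460, and their part in the differences was not tested.

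Ep300, Crebbp, Kat7 and Hdac1 were also lower in both lactate-free libraries, with log2 fold changes of -0.58, -0.39, -0.73 and -0.67 and edgeR adjusted p of 0.472 to 0.65. In all, 5 of the 9 genes were lower without overlap and 1 (Hdac3, log2 fold change 0.60) was higher, against 24.9% and 18.6% of all genes tested. The median log2 fold change was -0.39 over the 9 genes and -0.02 over all. Kat5, Kat2a and Hdac2 overlapped between the conditions, with log2 fold changes of -0.17 (SE 0.87), 0.09 (SE 0.84) and 0.02 (SE 0.27). Acss2 was not tested: its 4 counts without lactate and 62 with it give a ratio of 14.9 with lactate to without (exact 95% interval 5.52 to 56.2, counting error only), and 59 of the 62 came from 1 library.

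At the early stage no gene passed in 17343 tested by edgeR (0.0% called, 784 or 4.52% at an unadjusted p under 0.05, and 37 by DESeq2). Kat7 had 67.4 and 72.7 CPM with lactate and 43.1 and 43.6 CPM without, a log2 fold change of -0.58 (SE 0.24) with an edgeR adjusted p of 1.0 (0.775 to 1.0 over the alternatives), and was the only 1 of the 9 genes tested to be lower without overlap, as 21.2% of all genes were. Ep300 was higher in both lactate-free libraries, as were 11.4% of genes, with a log2 fold change of 0.51 (SE 0.38, edgeR adjusted p = 1.0). Kat8 had a log2 fold change of 0.31 (SE 0.34), Crebbp of -0.02 (SE 0.29), Hdac2 of 0.08 (SE 0.23) and Hdac1 of 0.15 (SE 0.83). Kat2a had a log2 fold change of 0.40 (SE 0.84), Kat5 of -0.21 (SE 0.47) and Hdac3 of -0.57 (SE 1.39), and Acss2 had too few counts to be tested.

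The difference between the stages, which also differ in length of treatment, was tested as an interaction over 8 libraries. No gene passed in 22287 tested by edgeR (0.0% called, 1683 or 7.55% at an unadjusted p under 0.05, and 231 by DESeq2). The late difference between G&N-L and G&N minus the early one was -1.74 on the log2 scale for Kat8 (SE 0.56, edgeR adjusted p = 0.639) and -1.05 for Ep300 (SE 0.46, edgeR adjusted p = 0.65), the 2 genes of the set with an unadjusted p under 0.05. For Kat7 the interaction was -0.11 (SE 0.44), for Hdac1 -0.80 (SE 0.89), for Crebbp -0.33 (SE 0.40) and for Kat2a -0.26 (SE 1.20). Kat5 had an interaction of 0.09 (SE 1.04), Hdac2 of -0.03 (SE 0.38) and Hdac3 of 1.21 (SE 1.58), and Acss2 was not tested. The interaction uses the libraries of the stage changes, which on the log2 scale were 0.55 with and -1.14 without lactate for Kat8, and 2.26 and 1.25 for Ep300.

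Lac-CoA was injected to ask whether lactyl-CoA makes up for the missing lactate. The G&N-L and G&N embryos are not described as injected, so lactyl-CoA and the injection itself cannot be told apart. Set against late G&N-L, no gene passed in 19610 tested by edgeR (0.0% called, 2609 or 13.3% at an unadjusted p under 0.05, and 1183 by DESeq2). Acss2 was the only 1 of the 10 genes with an unadjusted p under 0.05. It had 162 and 120 counts with Lac-CoA and 2 and 2 without, a ratio of 62.3 after scaling (exact 95% interval 24.1 to 230.3, counting error only), an edgeR adjusted p of 0.294 and, by DESeq2, of 0.00562 (0.00562 to 0.669 over the alternatives). Hdac1 had 48.1 and 69.1 CPM with Lac-CoA and 35.2 and 41.5 CPM without, a log2 fold change of 0.56 (SE 0.29, edgeR adjusted p = 0.506). With Lac-CoA the 2-cell genes summed to 4334 and 4530 per 1000000 counts, against 2430 and 2836 without, and the oocyte genes to 16273 and 11511, against 18919 and 21200, and their part was not tested.

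Acss2 and Hdac1 were higher with Lac-CoA without overlap, as were 24.8% of all genes, and Hdac3 was lower, as were 22%. The other 7 genes overlapped between the conditions, with log2 fold changes from -0.35 (Kat2a, SE 0.95) to 0.43 (Kat8, SE 0.55). Kat8 had 7.41 CPM in 1 Lac-CoA library, between the 7.31 and 7.67 CPM of the G&N-L libraries, and 13.5 CPM in the other. Against late G&N, again with no gene called by edgeR (0.0% of 19613, 1670 or 8.51% at an unadjusted p under 0.05, and 471 by DESeq2), Kat8 was lower in both Lac-CoA libraries, with a log2 fold change of -0.94 (SE 0.48, edgeR adjusted p = 0.731), and Crebbp too, with -0.28 (SE 0.25), as were 22.2% of genes. Hdac2 and Acss2 were higher in both, as were 17.4% of genes. Hdac2 had a log2 fold change of 0.30 (SE 0.23) and Hdac1 of -0.02 (SE 0.38). Ep300 was at -0.14 (SE 0.31), Kat7 at -0.34 (SE 0.39), Kat2a at -0.16 (SE 0.82), Kat5 at -0.14 (SE 1.04) and Hdac3 at 0.15 (SE 1.01). For Acss2 the ratio was 4.195 (exact 95% interval 3.18 to 5.62, counting error only), with an edgeR adjusted p of 0.853. Of its 62 counts in G&N, 59 came from 1 library. With 1 library left out its log2 fold change ran from 1.35 to 5.30. The 2 comparisons share the Lac-CoA libraries, and G&N and G&N-L are the arms of the late lactate comparison, so they are not independent.

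The H3K18R and WT libraries addressed what a histone H3 without lysine 18 changes in transcription. Since H3c1 had 4 and 3 counts in WT, the mutation and the presence of injected H3 mRNA cannot be told apart by this gene. Counts of other H3 genes are not given here. The oocyte genes summed to 4239 and 9089 per 1000000 counts in H3K18R and 3949 and 3884 in WT, and the 2-cell genes to 2250 and 2040 and to 1645 and 1079, and their part was not tested. None of the 10 genes had an unadjusted p under 0.05, and edgeR called 1 gene of 17704 (0.00565%), H3c1 itself, named after its values were seen, while DESeq2 called 118 and 6.44% of genes had an unadjusted edgeR p under 0.05. Kat7, Kat8 and Hdac1 were lower in both H3K18R libraries than in either WT library, as were 19.4% of all genes, with log2 fold changes of -0.54 (SE 0.36), -0.43 (SE 0.30) and -0.42 (SE 0.30) and edgeR adjusted p of 0.885 to 0.895. Kat8 had 45.1 and 41.5 CPM against 58.3 and 58.9 CPM in WT. Kat2a had the largest fitted decrease, -1.51 (SE 0.96), on libraries that overlapped, and Acss2 the log2 fold change -0.09 (SE 0.67). Ep300 was at -0.09 (SE 0.38), Crebbp at 0.37 (SE 0.34), Hdac2 at 0.48 (SE 0.37) and Kat5 at -0.03 (SE 0.70). No gene of the set was higher without overlap, as were 19.5% of all genes. Hdac3 had a fitted 1.72 (SE 2.80), with 0 counts in replicate 1 of both conditions. Its replicate 2 had 133 counts in H3K18R and 57 in WT.

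By the study's description, WT and late G&N embryos differed in injection, in Gne140 and NMN and in the experiment, which cannot be told apart. In WT no injected mRNA was seen under H3c1, and counts of other H3 genes are not given here. Kat8 was 58.3 and 58.9 CPM in WT against 18.8 and 23.97 CPM for G&N (log2 fold change 1.41, SE 0.28), with an edgeR adjusted p of 0.0552 (0.000473 to 0.165 over the alternatives). Hdac1 had a log2 fold change of 1.06 (SE 0.33, edgeR adjusted p = 0.113), Kat7 of 0.84 (SE 0.33, 0.172) and Acss2 a ratio of 14.9 (exact 95% interval 11.5 to 19.7, counting error only, edgeR adjusted p = 0.132). With 1 library left out the log2 fold change of Acss2 ran from 3.01 to 7.02. Kat8, Hdac1, Kat7 and Acss2 had an unadjusted p under 0.05, as did 28% of genes, and were higher in both WT libraries, as were 28.2%. None of the 10 genes passed after adjustment, where 4.62% of 18986 genes did, 1.94% higher and 2.68% lower. Crebbp and Hdac2 were lower in both WT libraries, as were 32.4% of all genes, with -0.57 (SE 0.29) and -0.76 (SE 0.31), and Ep300 was at 0.17 (SE 0.24), Kat2a at 1.06 (SE 0.74), Kat5 at -0.26 (SE 0.89) and Hdac3 at -1.32 (SE 2.05). The share of mitochondrially encoded counts was higher in both WT libraries, at 10.6% and 11.2% against 6.77% and 6.84% in G&N. The oocyte genes were lower in WT, at 3949 and 3884 against 14641 and 15144 per 1000000 counts, and so were the 2-cell genes, at 1645 and 1079 against 2381 and 2460. Their part in these differences was not tested.

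**Figure D4:**
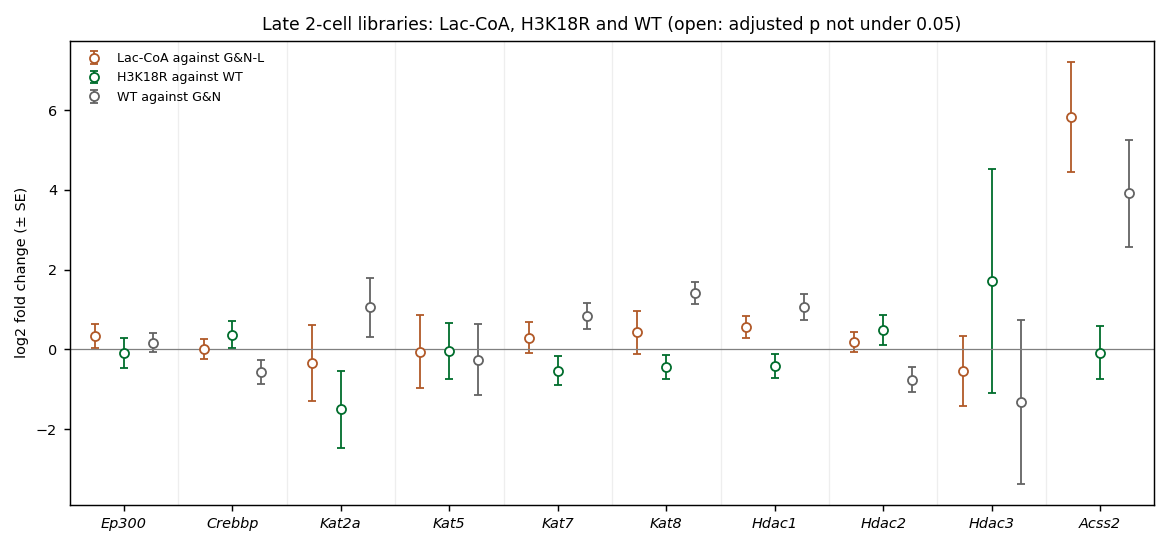
Log2 fold change ± SE (vertical axis) of each of the 10 genes among late 2-cell libraries, for Lac-CoA against G&N-L, H3K18R against WT, and WT against G&N. All points are open, since no edgeR adjusted p was under 0.05. The largest value, 5.84 for Acss2 with Lac-CoA, rests on 4 counts in the G&N-L libraries.

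The enzymes work in complexes and draw on the same cofactor, and 5 lists of such genes were counted beside the set. In the stage change with lactate, 0 of 23 other lysine acetyltransferases tested rose and 2 fell, and none of the 6 other zinc-dependent deacetylases passed. Kat14, an acetyltransferase subunit of the ATAC complex, fell from 116 ± 20.2 to 18.7 ± 5.32 CPM (log2 fold change -2.69, SE 0.34, edgeR adjusted p = 0.0128). Elp3, the catalytic subunit of Elongator, fell from 30.9 ± 9.84 to 8.88 ± 1.65 CPM (-1.85, SE 0.43, edgeR adjusted p = 0.049). Without lactate 2 of 22 rose, Clock and Atf2, and 4 fell, Kat14, Esco2, Hat1 and Mcm3ap. Kat14 fell by 3.06 on the log2 scale (SE 0.23, edgeR adjusted p = 0.00588), Esco2, which acetylates cohesin, fell from 1364 ± 224 to 515 ± 128 CPM, and Clock, a circadian transcription factor, rose from 131 ± 2.67 to 260 ± 2.50 CPM. Hdac8, also of class I, fell from 21.7 ± 8.63 to 4.29 ± 1.54 CPM (edgeR adjusted p = 0.0469), as the 1 of 5 other deacetylases tested that passed.

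Genes of acetyl-CoA and acyl-CoA supply moved in both directions, with 1 of 18 tested higher and 3 lower with lactate, and 1 of 17 higher and 4 lower without it. Pank3, which starts the synthesis of coenzyme A, rose from 18.1 ± 3.38 to 226 ± 6.11 CPM with lactate (log2 fold change 3.58, SE 0.27, edgeR adjusted p = 0.00599) and from 24.7 ± 11.2 to 132 ± 6.68 CPM without it. Suclg1, a subunit of succinyl-CoA ligase, fell from 79.3 ± 10.4 to 5.51 ± 0.612 CPM and from 57.1 ± 13.7 to 2.91 ± 1.83 CPM. Pdhx, of the pyruvate dehydrogenase complex, fell from 505 ± 93.2 to 115 ± 8.30 CPM with lactate, and Acat1, a mitochondrial thiolase, fell from 141 ± 4.73 to 54.9 ± 13.3 CPM without it. Acat1 also fell with lactate and Pdhx without it, and the remaining gene that fell without lactate was Sucla2. The median log2 fold change of this list was -0.37 with and -0.04 without lactate, against 0.08 and 0.15 over all genes.

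Of 56 acetyltransferase complex subunits tested, 5 rose and 5 fell with lactate, and 3 rose (Ruvbl1, Taf10 and Jade1) and 7 fell without it. With lactate the 5 that rose were Dr1, Jade3, Jade1, Ruvbl1 and Usp22, and the 5 that fell Tada1, Eny2, Ruvbl2, Dmap1 and Phf20. Dr1, a subunit of ATAC, rose from 7.81 ± 2.04 to 103 ± 5.18 CPM, and Jade3, a scaffold of Kat7 complexes, from 0.111 ± 0.0927 to 23.7 ± 5.39 CPM, while Tada1 of SAGA fell from 59.2 ± 9.998 to 5.20 ± 1.28 CPM, all with lactate. Without lactate Eny2 and Sgf29 of SAGA and Ruvbl2 of NuA4 fell by 2.04, 1.72 and 1.87 on the log2 scale (edgeR adjusted p = 0.00629, 0.0174 and 0.0178). Of 41 class I deacetylase complex subunits tested, 3 rose with lactate (Arid4b, Mta2 and Mier3) and 1 without it (Mta2), and Kdm1a was among those that fell without lactate. Rbbp7, the histone-binding subunit of NuRD and Sin3, fell from 5253 ± 10.9 to 511 ± 161 CPM with lactate and from 4700 ± 397 to 544 ± 146 CPM without. Sap30 and Sap18 of the Sin3 complex fell as well, by 1.82 and 1.26 with lactate and by 2.40 and 1.33 without it on the log2 scale (edgeR adjusted p = 0.00872 to 0.0269). The catalytic subunit Hdac1 stood higher in the late than in the early G&N libraries, as did Arid4b, Mta2 and Mier3. Rbbp7, Sap30 and Sap18 stood lower, so the subunits past the threshold went in both directions.

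**Figure D5:**
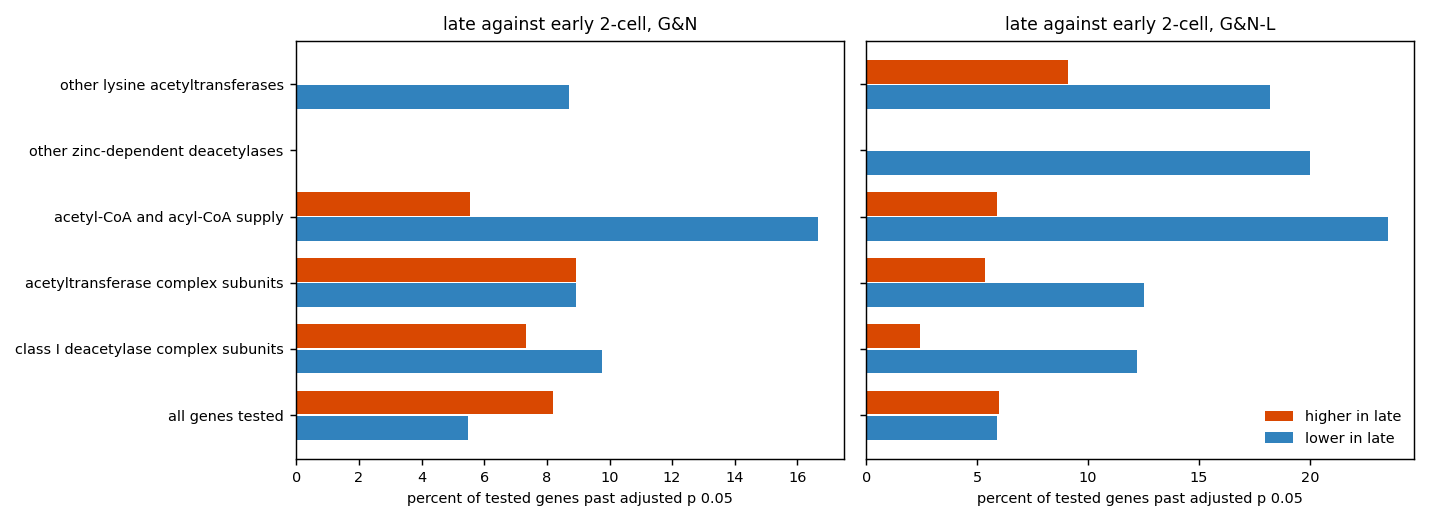
Percent of the tested genes of each of 5 lists with an edgeR adjusted p under 0.05 (horizontal axis, from 0), higher or lower in late than in early 2-cell embryos, with lactate (left) and without it (right), beside all genes tested. With lactate, 8.18% of all genes were higher and 5.47% lower, and without it 5.97% and 5.87%. The list of other zinc-dependent deacetylases rests on 6 and 5 genes.

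In the comparisons of lactate, Lac-CoA and H3K18R no gene of any list passed the adjusted threshold of edgeR, and the lists are given by their medians and their gene of smallest p. In late lactate removal the medians were -0.12 for other acetyltransferases, -0.29 for other deacetylases, -0.11 for acyl-CoA supply, -0.16 for acetyltransferase complexes and -0.34 for class I deacetylase complexes, against -0.02 over all genes. Dr1 had 103 ± 5.18 CPM with lactate and 29.1 ± 0.794 CPM without (edgeR adjusted p = 0.311), Ing1 of the Sin3 complex 173 ± 1.11 and 86.4 ± 3.22 CPM (0.313), Taf1 34.6 ± 1.73 and 7.37 ± 2.27 CPM (0.311) and Pdha1 50.1 ± 16.6 and 18.7 ± 1.17 CPM (0.324). Hdac5 had 0.576 ± 0.0361 CPM with lactate and 0 in both libraries without. In the early removal the genes were Hat1, at 134 ± 6.47 CPM with and 225 ± 46.4 CPM without lactate, Hdac6, Crat, Msl3 and Sap30, each with an edgeR adjusted p of 1.0.

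With Lac-CoA against G&N-L, Yeats2, a subunit of ATAC, had 169 ± 62.1 CPM against 18.1 ± 0.397 CPM (log2 fold change 3.17, SE 0.33, edgeR adjusted p = 0.294) and Ing1 228 ± 1.57 against 86.4 ± 3.22 CPM (0.294). Yeats2 was also above late G&N, at 13.0 ± 3.50 CPM (edgeR adjusted p = 0.394). Slc25a1, the mitochondrial citrate carrier, had 0 counts in both Lac-CoA libraries, 3.82 ± 3.20 CPM in the G&N-L libraries and 2.63 ± 2.13 CPM in those of G&N. Kat6b and Hdac6 were the genes of smallest p in the other 2 lists against G&N-L, and Esco2, Hdac10 and Tbl1xr1 against G&N, with edgeR adjusted p of 0.304 to 0.821. In H3K18R against WT the genes were Ppcs of coenzyme A synthesis, at 35.9 ± 6.11 and 83.1 ± 3.83 CPM (edgeR adjusted p = 0.734), Jade3, at 27.2 ± 4.08 and 56.7 ± 6.05 CPM (0.734), and Nat10, Hdac6 and Mier2.

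Between WT and late G&N, 1 of 18 acyl-CoA supply genes was higher and 1 lower: Ppcs rose from 18.6 ± 3.64 to 83.1 ± 3.83 CPM and Suclg2 fell from 94.4 ± 14.8 to 17.4 ± 5.96 CPM (edgeR adjusted p = 0.0413 for each). Msl3, a partner of Kat8, fell from 135 ± 20.2 to 49.0 ± 9.41 CPM, Taf10 of SAGA and TFIID fell from 117 ± 15.2 to 46.9 ± 2.00 CPM, and Mier3, of a corepressor with Hdac1, rose from 280 ± 86.5 to 819 ± 128 CPM (edgeR adjusted p = 0.0455, 0.0482 and 0.0476). Of the 2 remaining lists none passed, with Clock at 0.066 and Hdac10 at 0.219 as the smallest edgeR adjusted p. In the interaction of stage and lactate the genes of smallest p were Mcm3ap, Hdac5, Pank3, Dr1 and Rcor3, with edgeR adjusted p of 0.536 to 0.65.

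The genes whose log2 CPM followed each of the 10 most closely over the 14 libraries were sought among 7687 genes with a mean of at least 10 CPM. These correlations are descriptions, since the libraries share stage and experiment. Ctsl (Pearson's r = 0.99), Gm4864 (0.99) and Apom (0.99) lay closest to Hdac1, and Gm4864 shares 9.16% of the 31-base words of Hdac1. Gm10076 (0.98), Gm10736 (0.98) and Med29 (0.97) lay closest to Ep300, and Eif5 (0.97), Tomm22 (0.96) and Emc3 (0.96) to Kat8. Closest to Kat7 were Sap30 (0.95), Pdap1 (0.94) and Top1 (0.94), and to Acss2 Rps19bp1 (0.96), Aamdc (0.96) and Cops6 (0.95).

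Crebbp was followed by Cop1 (0.94), Gatad2a (0.92) and Wnk1 (0.92), and Hdac2 by 1700086L19Rik (0.92), Cpeb4 (0.90) and Bri3 (0.89). The values were lower for Kat5, with Tshz1 (0.90), Nlrc4 (0.88) and Dpf3 (0.88), for Hdac3, with Dtnbp1 (0.88), Tm9sf4 (0.87) and Hdac9 (0.87), and for Kat2a, with Aftph (0.83), Zfp445 (0.80) and Hspa5 (0.80). Within the set, the highest r was 0.907 between Ep300 and Hdac1 and the lowest -0.78 between Kat7 and Hdac2.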

How the data were processed

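RNA-seq was analysed for 14 libraries of mouse 2-cell embryos, 2 in each of 7 conditions. FastQC and Trim Galore (quality and trimming), HISAT2 (alignment to mm39), featureCounts (counts per gene) and DESeq2 are the tools the authors name in the methods or in the submitters' processing notes. Versions, the annotation release and the strand setting are not given in the sources used here. The deposited values are raw counts of 56923 genes without normalization. Groups were taken from the sample titles. The mutant columns of the count table are named K18A where the titles have H3K18R, and the methods state 3 replicates where the counts hold 2. Libraries of a condition differed by far more than counting noise (chi-square per degree of freedom 47.78 to 194.6), and none was counted as a duplicate.

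The tests used edgeR 4.0.16 (R 4.3.3): filterByExpr (minimum count 10), TMM scaling and the two-sided quasi-likelihood test, on the 4 libraries of a comparison alone (8 for the interaction). P-values were adjusted over all genes tested (Benjamini-Hochberg, threshold 0.05). The SE is the log2 fold change divided by the root of the F statistic. Levels per kilobase used the length of the canonical transcript in GENCODE vM39. The ratios of Acss2 counts have exact binomial intervals (95%). The 31-base words were compared with all annotated transcripts. The fit was tested on simulated data. Alternatives were DESeq2 1.42.0 on the same genes, its size factors in edgeR, library totals, no filter, at least 10 counts in every library, the replicate number as a block, all 14 libraries in one fit and each library left out.

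The genes, the lists and the rule for naming were chosen with earlier results of these data known. The 10 genes were reported in every comparison, with a value where they could be tested, from each list up to 3 genes of smallest p past the threshold or else the gene of smallest p, and for each of the 10 the 3 genes of highest Pearson's r. List genes named beyond 3 were added to account for small counts. A result of the list of class I deacetylase complex subunits is not reported here.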

Additional observations from a re-analysis of the deposited data

How the results depend on the processing

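Counts of the 10 genes past the adjusted threshold changed as follows. In the stage change with lactate (3, with 13.7% of all genes called) they were 5 with DESeq2 (30.6%), 4 with no filter (17.3%), with at least 10 counts in every library (25.8%) and with all 14 libraries in one fit (13.6%), 3 with library totals (13.5%), 2 with the size factors of DESeq2 (13.3%) and 0 to 2 with 1 library left out, with 0 without either late G&N replicate. In the stage change without lactate (2, with 11.8% called) they were 5 with DESeq2 (28%), 4 with at least 10 counts in every library (23.4%), 3 with library totals (13.5%), no filter (10.5%) and all 14 libraries (10.2%), 2 with the size factors of DESeq2 (11.5%) and 0 to 1 with 1 library left out. For Lac-CoA against G&N-L 0 became 1 with DESeq2, and for WT against G&N 0 became 3 with DESeq2, 1 with library totals, 3 with no filter and 2 with at least 10 counts. The count of genes whose early and late libraries did not overlap was 2 to 4 with 1 library left out. The cause of these changes was not tested.

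The replicate numbers did not pair the libraries (correlation of same-number deviations -0.0402 to 0.00709). With the replicate block, 3 genes became 2 in the stage change with lactate, 2 became 0 in that without, and the counts over all genes went from 2654 to 1839 (9.46%) and from 2203 to 1391 (7.48%). The block turned the log2 fold change of Kat2a, Kat5 and Hdac2 in late lactate removal to -0.10, 0.13 and -0.000717, of Crebbp and Hdac1 in early removal to 0.010 and -0.026, of Hdac1 with Lac-CoA against G&N to 0.021, and of Kat5 in H3K18R and in WT against G&N to 0.013 and 0.052.

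Over all genes, DESeq2 called 5959 and 5218 genes in the stage changes with and without lactate (2654 and 2203 by edgeR), 916, 37 and 231 in late and early lactate removal and their interaction, 1183 and 471 for Lac-CoA against G&N-L and G&N (0 by edgeR in these 5), 118 for H3K18R (1) and 4104 for WT against G&N (877). With no filter the counts were 5060, 2975, 317, 42, 361, 3, 22, 78 and 3668 in the same order. At least 10 counts in every library gave 114 in late removal, 2 and 20 for Lac-CoA and 2971 for WT against G&N, and all 14 libraries in one fit gave 11 and 4 in late and early removal, 1 in the interaction and 9 for H3K18R. With 1 library left out the stage changes gave 220 to 2446 and 335 to 1393 genes, WT against G&N 0 to 435 and the interaction 0 to 26.

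Signs turned only for genes that passed no threshold. All 14 libraries in one fit turned Hdac2 in late and early removal and the interaction to -0.033, -0.034 and 0.0015. Library totals turned Kat5 with Lac-CoA against G&N-L to 0.040, Hdac1 against G&N to 0.040, Kat5 in H3K18R to 0.0016 and Hdac2 in the interaction to 0.0063. With 1 library left out, log2 fold changes ran in late removal from -1.18 to 0.76 for Kat2a, -0.80 to 1.26 for Kat5 and -0.27 to 0.25 for Hdac2. In early removal they ran from -0.31 to 0.35 for Crebbp, -0.75 to 0.18 for Kat5, -1.08 to 0.83 for Hdac1, -0.098 to 0.23 for Hdac2 and -1.63 to 0.017 for Hdac3. In the stage change with lactate Acss2 ran from -0.79 to 7.85. With Lac-CoA against G&N-L they ran from -0.21 to 0.23 for Crebbp, -1.37 to 0.92 for Kat2a, -1.47 to 0.65 for Kat5, -0.047 to 0.79 for Kat8 and -0.063 to 0.49 for Hdac2. Against G&N they ran from -0.48 to 0.11 for Ep300, -1.21 to 0.45 for Kat2a, -1.54 to 1.25 for Kat5, -0.42 to 0.46 for Hdac1 and -0.12 to 0.44 for Hdac3. In H3K18R against WT they ran from -0.60 to 0.28 for Ep300, -0.36 to 0.40 for Kat5, -7.50 to 9.01 for Hdac3 and -0.88 to 0.42 for Acss2, and in WT against G&N from -0.86 to 1.17 for Kat5. In the interaction they ran from -1.53 to 0.41 for Kat2a, -0.60 to 1.47 for Kat5, -0.33 to 0.15 for Kat7, -1.51 to 0.42 for Hdac1 and -0.32 to 0.21 for Hdac2.

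With 1 library in an arm, its spread was assumed to equal that of the other arm. The values of Hdac3 and Acss2 rest on few counts.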
